A study of Mus musculus with 8 samples.

Results

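The genes described here are 10 genes of the AP-1 family of transcription factors: Fos, Fosb, Fosl1, Fosl2, Jun, Junb, Jund, Atf3, Maff and Mafk. Each was taken from the array's transcript clusters whose annotation names 1 gene. Of the 10 genes, 9 were measured, among 30702 genes measured in all, and 8 of them were among the 17221 genes tested; each of the 9 had a single cluster. Junb was named together with Prdx2 on its cluster, so no value is given for it. Fosl1 lay under the limit for dim clusters, 5.36, which a cluster had to reach in at least 4 of 8 samples; it reached it in 3.

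The cells were fibroblasts of the colon of wild-type C57BL/6J mice, sorted as lacking Epcam, CD45 and CD31 and carrying gp38 (podoplanin), and then split by the surface protein CD90, the product of Thy1. The CD90-negative population has the samples titled 13, 15, 17 and 19 and the CD90-positive population those titled 14, 16, 18 and 20, with 1 array each and no treatment named. Both came from 4 mice whose age the labels do not give, and no label says which samples share a mouse. Every p-value here rests on the spread from sample to sample, which may be technical in part. By the sex genes given below, samples 13 and 14 came from other mice than the rest, so this spread also holds differences between mice. The question is whether the 2 sorted populations differ in the expression of these genes.

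AP-1 is a family of dimers that bind DNA through a basic region and hold together through a leucine zipper. FOS proteins need a JUN protein as partner, JUN proteins also pair with each other, ATF3 pairs with JUN proteins or with itself, and the small MAF proteins MAFF and MAFK lack a domain that activates transcription and pair with FOS, NRF or BACH proteins. Several of these genes, Fos, Fosb, Jun and Atf3 among them, are immediate-early genes: serum, growth factors, stress and mechanical or enzymatic handling of a tissue induce their transcripts within minutes, through MAP kinases and the factors SRF and CREB. In fibroblasts AP-1 is known for driving genes of matrix proteases and cytokines.

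Levels are the deposited log2 values, with mean ± SD over the 4 samples of a population. A difference is the CD90-positive mean minus the CD90-negative mean on the log2 scale, with its standard error (SE). In 563 clusters the mean exceeded 16, the upper end of a 16-bit scanner's log2 range. Folds therefore hold for the deposited scale and not for amounts of RNA, and levels of different genes are not set against each other. "Rose" and "fell" stand for an adjusted p under 0.05 in limma, with Benjamini-Hochberg adjustment over all 17221 genes tested. Intervals of 95% are those of the single gene. Array medians ran from 5.3 to 5.41. Thy1 rose from 5.52 ± 0.046 to 7.69 ± 0.47 (p = 0.0286 in a two-sided exact permutation test, which cannot go lower with 4 against 4 samples). Pdpn was at 13.17 ± 0.20 and 13.20 ± 0.22. The CD90-negative mean of Thy1 lay below the array's negative control rows, so the size of its difference is not exact. Below these rows means below their median, here and later, and single control rows can lie lower. That median was 6.791 to 6.836 in CD90-negative and 6.577 to 6.674 in CD90-positive samples. The limit for dim clusters, 5.36, is under it. With the limit at the median of the control rows, 12201 genes were tested instead of 17221. Of 7 measured fibroblast markers, 0 had both population means below those rows; among the genes excluded by the gate, Ptprc and Pecam1 did, and Epcam, at 8.06 ± 0.83 and 8.19 ± 0.83, did not. Samples 13 and 14 stood apart by the X-chromosome gene Xist (16.16 and 16.27, against 5.89 to 9.32 elsewhere). They also stood apart by the Y-chromosome gene Uty (5.486 and 5.565, against 9.648 to 10.06 elsewhere). By these genes samples 13 and 14 read as female and the others as male, which is taken from the values and not from labels. The part of sex in the values of the members was not tested. Samples 13 to 16 stood apart from samples 17 to 20 by Cwc22 (7.86 to 9.43 against 13.47 to 14.7). Members are therefore also given within samples 13 and 14, within 15 and 16, and within 17 to 20.

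Of the 8 members tested, 4 rose in the CD90-positive population (Atf3, Jun, Maff and Fos) and 0 fell; 5 were higher and 0 lower at an unadjusted limma p under 0.05. Over all genes tested, 29.7% were called, 14.0% higher and 15.7% lower. The median difference of the 8 members was 0.59, beside -0.014 over all genes tested. The same 4 genes were those in which every CD90-positive sample lay above every CD90-negative one, a separation found in this direction in 14.9% and in either direction in 32.3% of all genes tested. The mean of the 9 measured members ran from 10.9 to 11.55 in the CD90-negative and from 11.64 to 11.78 in the CD90-positive samples.

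**Figure D1:**
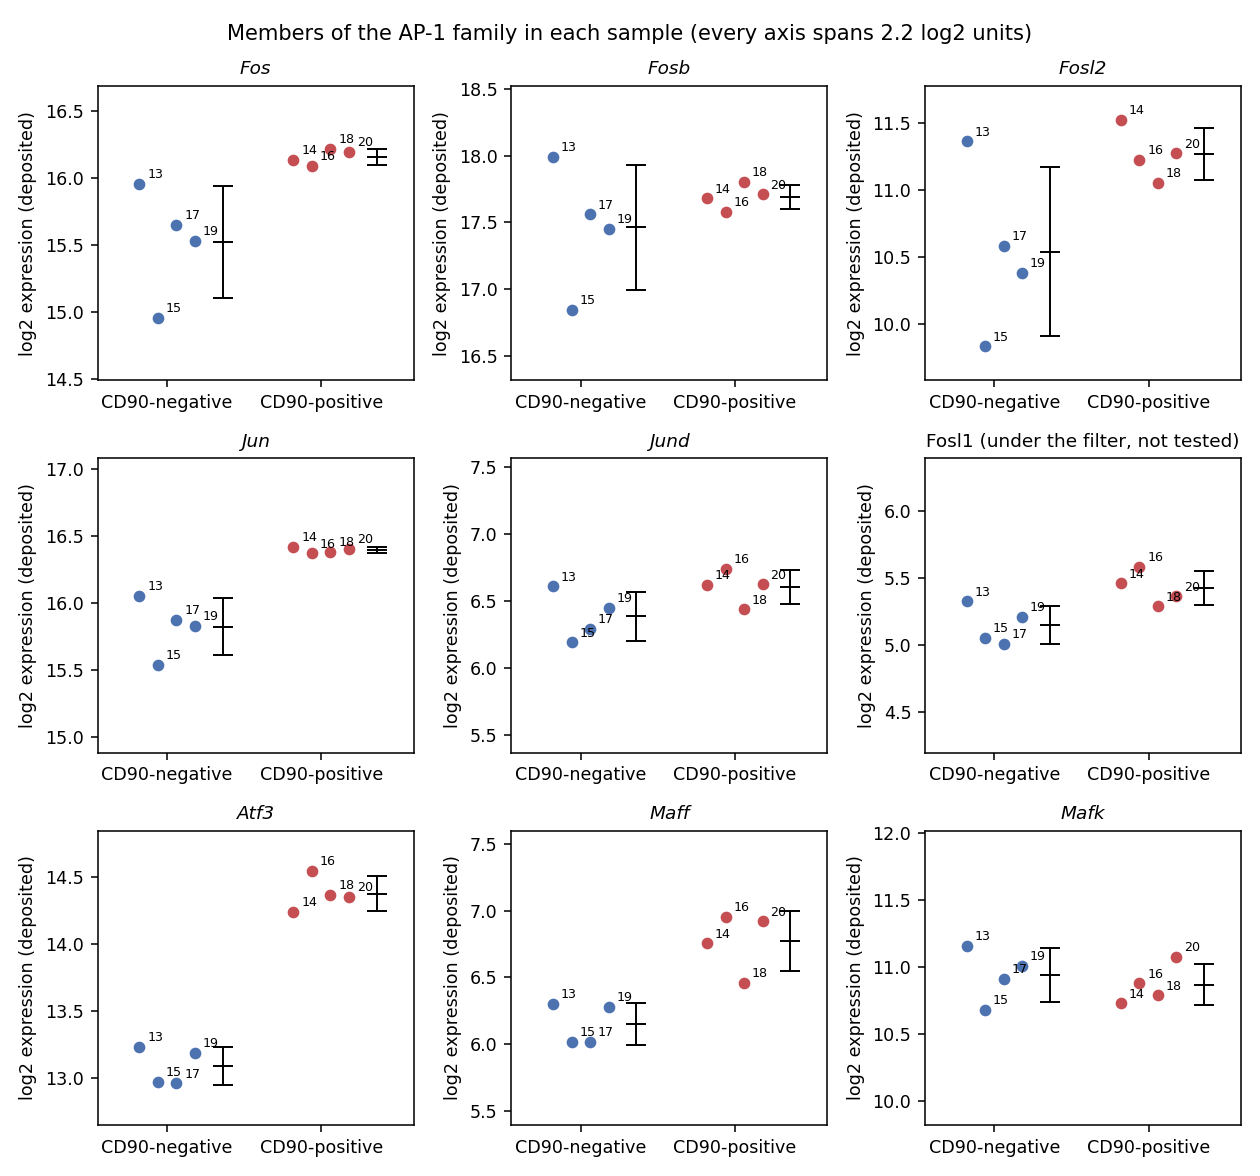
Deposited log2 expression of the 9 measured members in each sample, labelled with its title number; bars beside the points are mean and SD of the 4 samples, and every vertical axis spans the same width. In Atf3, Jun, Maff and Fos the populations do not overlap, and in Fos, Fosb and Fosl2 sample 15 lies below and sample 13 above the other CD90-negative samples.

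The sequence before the start site is shown for the 4 genes that rose, because transcripts of this family are known to be induced through short elements close to that start. The sequences are from RefSeq's mouse genome (build GRCm38.p6), 5′ to 3′ on the strand of the gene. Capitals mark matches, on either strand, to TGACGT, TGACGTCA (which contains TGACGT) or TGACATCA.
Fos, chr12:85473790-85473889, + strand: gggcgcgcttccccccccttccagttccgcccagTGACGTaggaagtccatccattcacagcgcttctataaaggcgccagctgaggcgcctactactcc
Jun, chr4:95052223-95052322, - strand: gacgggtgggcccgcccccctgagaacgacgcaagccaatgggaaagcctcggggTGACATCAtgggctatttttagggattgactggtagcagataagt
Atf3, chr1:191183334-191183433, - strand: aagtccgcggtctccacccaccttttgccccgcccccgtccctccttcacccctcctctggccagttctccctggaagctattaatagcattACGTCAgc
Maff, chr15:79347480-79347509, + strand: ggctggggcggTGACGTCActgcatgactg

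For Fos, Jun and Atf3 these are the 100 bases before the annotated start, and for Maff 30 bases that hold the match. Counted from the start, the match lay at -66 to -61 in Fos, at -45 to -38 in Jun, at -8 to -3 in Atf3 (on the opposite strand) and at -29 to -22 in Maff, from 1 of its annotated starts. TGACGT stood in the windows of 3 of the 9 members that have one (Atf3, Fos and Maff) and in 7.51% of all 32851 windows, each reaching from 250 bases before to 50 after a start. TGACGTCA stood in that of 1 member (Maff) and in 1.79% of windows, and TGACATCA in those of 2 members (Jun and Maff) and in 3.62%. TGANTCA and the CArG box bound by SRF stood in those of 0 members, and in 7.81% and 1.63% of windows. TGANTCA is wider than the classical AP-1 element, which has only C or G at N, so its share is not that of this element. Members are counted by gene, with a match in any of their windows, while the shares are counted by window. A gene with several annotated starts, such as Maff, has more windows in which to match, so these counts and shares are not like for like. A match is a description of letters, and no match says only that they are not in this window.

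Among the FOS subunits, Fos codes for the founding member of the family. Its CD90-negative values were 15.96, 14.96, 15.65 and 15.53 in samples 13, 15, 17 and 19, and its CD90-positive values 16.14, 16.09, 16.22 and 16.20 in samples 14, 16, 18 and 20. All CD90-positive samples were higher, and they lay close together, while sample 15 was lowest and sample 13 came nearest to the CD90-positive values. The mean rose from 15.53 ± 0.42 to 16.16 ± 0.057, a difference of 0.64 (SE 0.18; 95% interval 0.22 to 1.06; limma adjusted p = 0.0304), 1.55-fold on the deposited scale. The difference was 0.17 within samples 13 and 14, 1.14 within 15 and 16 and 0.62 within 17 to 20. The call of Fos was lost without any 1 of samples 14, 16, 17, 18, 19 and 20 (limma adjusted p = 0.0513 to 0.0727), at differences of 0.62 to 0.68. The call held without sample 13 or 15, with a difference of 0.45 without 15. It also held with array weights (0.66, limma adjusted p = 0.00336) and with the 3 sets of samples as blocks (0.64, limma adjusted p = 0.012). Without samples 13 and 14 the call held as well (0.79, limma adjusted p = 0.0134). It was also lost after another quantile normalization (0.50, limma adjusted p = 0.0839) and after centring the arrays (0.59, limma adjusted p = 0.0505).

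Fosb, whose truncated product deltaFosB is long-lived, did not pass the test. Its values were 17.99, 16.85, 17.56 and 17.45 in samples 13, 15, 17 and 19 and 17.68, 17.58, 17.80 and 17.71 in samples 14, 16, 18 and 20. The highest and the lowest of all 8 values were both CD90-negative, so that the CD90-positive values lay inside the CD90-negative range. The difference was 0.23 (SE 0.21; 95% interval -0.24 to 0.70; limma adjusted p = 0.437). It was -0.31 within samples 13 and 14, 0.74 within 15 and 16 and 0.25 within 17 to 20.

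Fosl2 codes for FRA2, a FOS-related protein without the C-terminal activation domain of FOS, known for its part in fibrosis. Its values were 11.36, 9.83, 10.58 and 10.38 in samples 13, 15, 17 and 19 and 11.52, 11.22, 11.05 and 11.27 in samples 14, 16, 18 and 20. Sample 13 lay among the CD90-positive samples and the other CD90-negative samples lay below all of them. The means were 10.54 ± 0.63 and 11.26 ± 0.19 and differed by 0.73 (SE 0.28; 95% interval 0.089 to 1.37), which did not pass after adjustment (limma adjusted p = 0.0845; 1.66-fold on the deposited scale). Without sample 13 the difference was 1.004 and passed (limma adjusted p = 0.00491), as it did without samples 13 and 14 (0.92, limma adjusted p = 0.00916), with array weights (0.78, limma adjusted p = 0.00903) and with the 3 sets of samples as blocks (0.73, limma adjusted p = 0.02). Without sample 15 it was 0.49 (limma adjusted p = 0.161).

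Fosl1 codes for FRA1, the other FOS-related protein without that domain. It was dim in every sample, from 5.01 to 5.32 in CD90-negative and from 5.29 to 5.58 in CD90-positive samples, and both means were below those of the negative control rows. The populations overlapped, and in a fit without the limit on dim clusters the difference was 0.27 (SE 0.094; limma adjusted p = 0.0847).

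Among the JUN subunits, Jun codes for the strongest activator of the JUN proteins. Its values were 16.05, 15.54, 15.87 and 15.83 in samples 13, 15, 17 and 19 and 16.42, 16.37, 16.38 and 16.40 in samples 14, 16, 18 and 20. The CD90-positive samples spanned 0.048, the narrowest range of the 9 measured members in this population, and the CD90-negative ones 0.51, again with 15 lowest and 13 highest. The mean rose from 15.82 ± 0.21 to 16.39 ± 0.022, a difference of 0.57 (SE 0.10; 95% interval 0.34 to 0.80; limma adjusted p = 0.00301; 1.48-fold on the deposited scale). The difference was 0.37, 0.83 and 0.54 within samples 13 and 14, 15 and 16, and 17 to 20, and the call was kept in all 17 alternatives (limma adjusted p up to 0.0162).

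Jund, which codes for a JUN protein found in many resting cells, lay between 6.19 and 6.61 in CD90-negative and between 6.44 and 6.74 in CD90-positive samples. Both means, 6.39 ± 0.18 and 6.61 ± 0.13, were below the negative control rows, and the values overlapped. The difference of 0.22 (SE 0.10; 95% interval -0.019 to 0.46) did not pass (limma adjusted p = 0.154).

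Atf3, a stress-induced factor that often acts as a repressor, had the largest difference of the 8 tested members. Its values were 13.23, 12.97, 12.96 and 13.19 in samples 13, 15, 17 and 19 and 14.24, 14.55, 14.37 and 14.35 in samples 14, 16, 18 and 20. The gap between the populations was wider than the range within either of them. The mean rose from 13.09 ± 0.14 to 14.38 ± 0.13, a difference of 1.29 (SE 0.094; 95% interval 1.075 to 1.505; limma adjusted p = 1.84e-05), 2.44-fold on the deposited scale. The difference was 1.01, 1.58 and 1.28 within the 3 sets of samples and ran from 1.23 to 1.38 over all 17 alternatives, in each of which it passed.

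Of the small MAF genes, Maff, the one known to be induced by stress and cytokines, rose. Its values were 6.30, 6.02, 6.02 and 6.28 in samples 13, 15, 17 and 19 and 6.75, 6.95, 6.46 and 6.92 in samples 14, 16, 18 and 20. The populations did not overlap, with sample 18 nearest to the CD90-negative values. The mean rose from 6.15 ± 0.16 to 6.77 ± 0.22, a difference of 0.62 (SE 0.12; 95% interval 0.33 to 0.90; limma adjusted p = 0.00602; 1.53-fold on the deposited scale), and the call was kept in the 16 alternatives that tested it. Its CD90-negative mean lay below the negative control rows, so the size of the difference is not exact.

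Mafk had values of 11.16, 10.68, 10.91 and 11.01 in samples 13, 15, 17 and 19 and 10.73, 10.88, 10.79 and 11.08 in samples 14, 16, 18 and 20. The populations overlapped throughout. The means of 10.94 ± 0.20 and 10.87 ± 0.16 differed by -0.070 (SE 0.12; 95% interval -0.34 to 0.20; limma adjusted p = 0.703), the one negative difference among the 8 tested members.

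**Figure D2:**
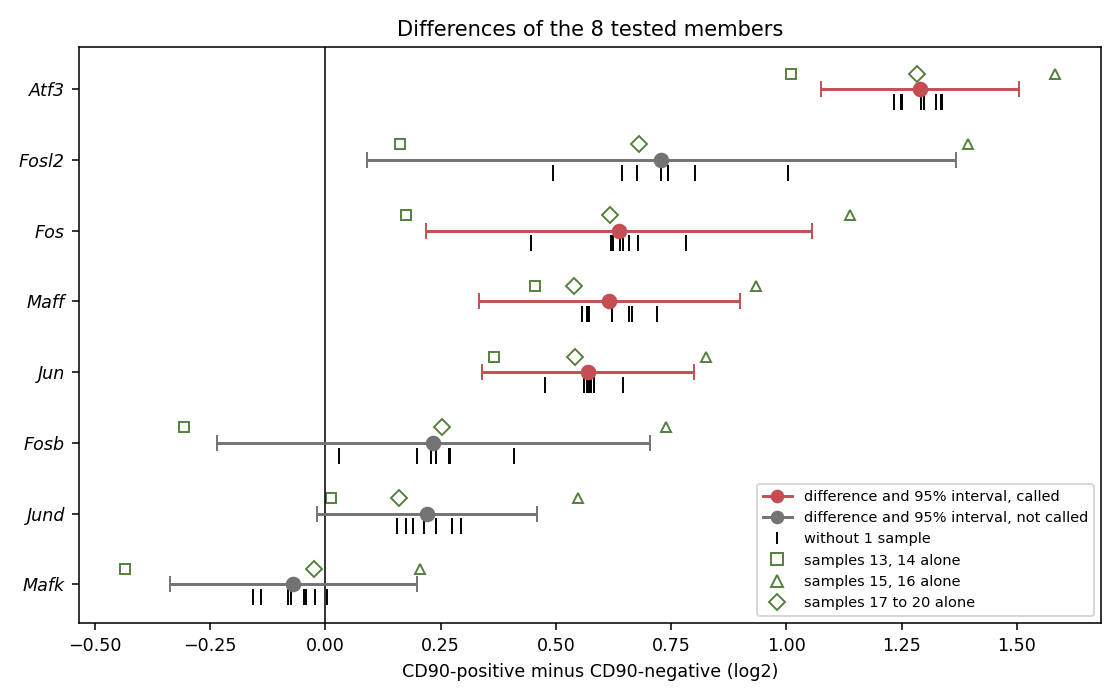
Difference between the populations (log2, horizontal) of the 8 tested members: circles and bars are the limma difference and its 95% interval (n = 4 in each population), ticks the difference with 1 sample left out, and open symbols the difference within the sets of samples 13 and 14, 15 and 16, and 17 to 20. In all 8 members the difference was smallest within samples 13 and 14 and largest within 15 and 16, as in Fos (0.17 and 1.14).

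The members also differed in how they varied within a population. The SD of the CD90-negative samples was 7.44 times that of the CD90-positive samples for Fos, 5.29 times for Fosb, 3.25 times for Fosl2 and 9.71 times for Jun, and between 0.702 and 1.46 times for Fosl1, Jund, Atf3, Maff and Mafk. It was the larger SD in 8 of the 9 measured members (all but Maff), against 52.4% of all genes tested. Sample 13 was the highest CD90-negative sample in 9 of 9 members, against 24.8% of all genes tested, and sample 15 the lowest in 7 of 9 (in Fosl1 and Atf3 it was sample 17), against 31.2%. The CD90-positive means of Fos, Fosb and Jun lay above 16 and that of Fosl2 at 11.26, and the part of array brightness in their narrow ranges was not tested. The members share their arrays and are not independent of each other, and no test was made.

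**Figure D3:**
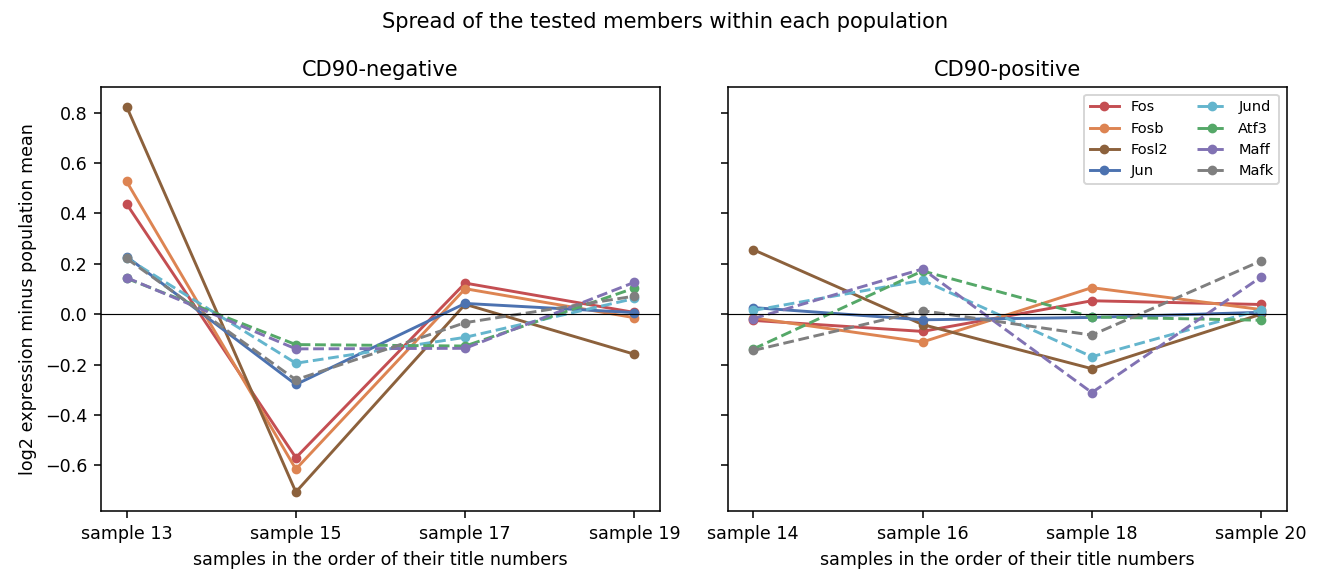
Log2 expression of the 8 tested members minus the mean of the sample's own population, by sample; lines join the values of 1 gene. Fos, Fosb, Fosl2 and Jun (full lines) run in parallel in the CD90-negative samples and lie closer to 0 in the CD90-positive ones, where Fosl2 spans 0.47 and Jun 0.048.

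With each population centred on its own mean, Fos correlated over the 8 samples at r = 0.994 with Fosb, 0.986 with Jun and 0.89 with Fosl2, and at 0.434 with Atf3 and 0.296 with Maff. Jund correlated with Maff at 0.871 and with Atf3 at 0.75. In the CD90-negative samples Fos, Fosb, Fosl2 and Jun thus varied together, while the 2 genes with the steadiest calls beside Jun, Atf3 and Maff, followed them less closely. These r values rest mostly on that population, where centred Fos was 0.438 in sample 13 and -0.569 in sample 15. In CD90-positive samples it lay between -0.068 and 0.054. There the genes did not all run together: in sample 14 Fosl2 was at 0.256 and Fos at -0.024. The 5 of all tested genes that correlated most closely with Fos in this way were Itih5 (0.995), Fosb (0.994), S100a10 (0.987), Jun (0.986) and Porcn (0.984). Itih5 codes for a hyaluronan-binding protein, S100a10 for an annexin partner and Porcn for the enzyme that acylates Wnt ligands. All of these are descriptions over 8 points that share arrays and normalization; in Fos and Itih5 samples 13 and 15 lie farthest from their population's mean.

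Several other values followed the same samples. The mean of 11 measured epithelial markers was 9.62, 7.61, 8.17 and 8.14 in samples 13, 15, 17 and 19, so the sample with the most Fos had the highest and the one with the least Fos the lowest value; 0 of 11 epithelial markers differed between the populations in limma (0 also at an unadjusted p under 0.05), and in CD90-positive samples the mean ran from 7.98 to 9.63. The mean of 10 measured heat shock genes went the other way in these samples, at 11.79, 12.82, 12.2 and 12.55, and was 11.93, 13.0, 12.34 and 12.7 in samples 14, 16, 18 and 20. Within the CD90-positive population Fos varied by 0.12 while the heat shock mean varied from 11.93 to 13.0. The part of either in the values of the members was not tested.

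Markers of several cell types were also called between the populations. Over all genes tested, 29.7% were called, 14.0% higher and 15.7% lower. The call of 1 of 3 mesothelial markers is close to that share and is no result about the list. Of 7 tested fibroblast markers 3 rose and 1 fell, with means over the list from 13.9 to 14.08 in CD90-negative and from 14.34 to 14.42 in CD90-positive samples. All 8 measured markers of enteric glia rose, and their mean over 8 genes ran from 5.91 to 6.28 in CD90-negative and from 7.54 to 8.71 in CD90-positive samples. Of these 8, 2 (Gfap and Foxd3) had both means below the negative control rows. The CD90-negative means of S100b, Sox10, Cdh19 and Kcna1 also lay below them, so the sizes of these rises are not exact. Of 12 smooth muscle and pericyte markers 7 rose and 4 fell, with means from 8.57 to 9.05 and from 8.49 to 9.29. In 2 of the 12 (Lmod1 and Notch3) both means lay below the negative control rows. Of 6 tested leukocyte markers 3 rose (12 measured; means from 5.37 to 5.62 and from 5.52 to 5.93), and 10 of the 12, Ptprc among them, had both means below the negative control rows. Of 7 tested endothelial markers 1 rose and 2 fell (10 measured; 5.81 to 6.25 and 5.84 to 6.41; 8 of 10 below the negative control rows), and of 3 tested mesothelial markers 1 rose (6 measured; 4.78 to 4.93 and 5.234 to 5.603; 6 of 6 below them). Their part in the differences of the AP-1 genes was not tested, and in sorted bulk RNA more cells with a transcript and more transcript in each cell cannot be told apart.

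Other immediate-early genes, known like Fos and Jun to respond to tissue dissociation, mostly had more transcript in CD90-positive samples. Among 28 tested, 20 rose and 1 fell (71.4% and 3.57%, beside 14.0% and 15.7% of all genes tested), with a median difference of 0.56. The 4 with the smallest p were Gadd45a, a growth arrest gene, which fell by 1.25, and Zfp36l2, Ier2 and Ccn2, which rose; 7 did not pass. Zfp36l2 rose by 0.73 and Ier2 by 0.74, while the size for Ccn2 is not exact, since its CD90-negative mean lay below the negative control rows. The list's mean was 10.7, 10.25, 10.56 and 10.47 in samples 13, 15, 17 and 19 and 10.96, 11.15, 11.02 and 11.05 in samples 14, 16, 18 and 20, so here too sample 13 was the highest and sample 15 the lowest of the CD90-negative samples, and the populations did not overlap. Of 10 tested heat shock genes 0 were called in limma (3 higher and 0 lower at an unadjusted p under 0.05), with a median difference of 0.13. The 4 with the smallest p were Hspa5, at a difference of 0.55 (limma adjusted p = 0.0604), Hsp90aa1 at 0.56, Dnajb4 at 0.30 and Dnajb1 at 0.48. With the 3 sets of samples as blocks 4 of these 10 genes were called higher, and with array weights 2, without sample 14 also 2, and without samples 13 and 14 it was 1.

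**Figure D4:**
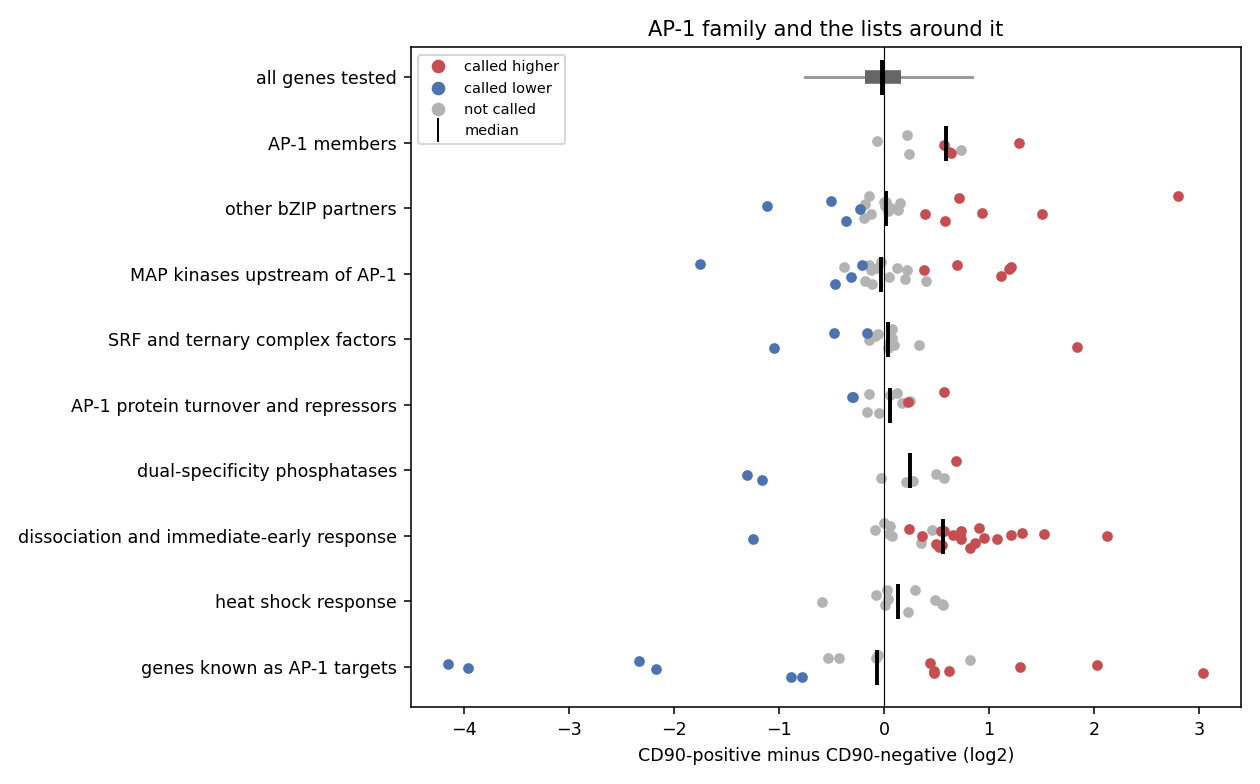
Difference between the populations (log2, horizontal) of every tested gene of the AP-1 family and of 8 lists around it; black ticks are medians, and for all 17221 genes tested the thick bar runs from the 25th to the 75th and the thin line from the 5th to the 95th percentile. The medians of the AP-1 members and of the immediate-early list lie at 0.59 and 0.56, and the other lists have calls on both sides or, for heat shock genes, on neither.

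The other bZIP proteins, with which AP-1 proteins pair or compete, moved in both directions: of 21 tested, 6 rose and 4 fell (28.6% and 19.0%, beside 14.0% and 15.7% of all genes tested), with a median difference of 0.015. Maf, a large MAF protein with an activation domain, rose from 9.45 ± 0.54 to 12.26 ± 0.13, and here as well sample 13 was the highest CD90-negative sample (10.21) and sample 15 the lowest (8.93). Bach2, a repressor that pairs with small MAF proteins, rose by 0.93, and Creb5, a partner of JUN, rose from 8.52 ± 0.38 to 10.02 ± 0.17. Batf, an inhibitory partner of JUN, fell to a CD90-positive mean below the negative control rows, so the size of its fall is not exact. Without sample 19, or without sample 20, the list had 4 higher and 2 lower calls.

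Genes of the kinases above AP-1 likewise moved in both directions. Of 21 tested MAP kinase genes 5 rose and 4 fell (23.8% and 19.0%, beside 14.0% and 15.7% of all genes tested), with a median difference of -0.029. Map3k8, a kinase that activates the ERK pathway, rose by 1.12, Mapk8ip1, a scaffold of the JNK pathway, by 1.21, Mapk9, which codes for the JUN kinase JNK2, by 1.19 and Mapk12, a p38 kinase, by 0.70; these 4 had the smallest p of the list. Genes of the same 2 kinase families fell (named after their values were seen): the JNK gene Mapk10, from 7.30 to a CD90-positive mean of 5.55, which lay below the negative control rows, and the p38 gene Mapk14, by 0.47. Of 13 genes of SRF and its partners and coactivators 1 rose and 3 fell, with a median difference of 0.041; 4 of 13 is close to the 29.7% called over all genes and is no result about the list. Myocd, a coactivator of SRF, rose from a mean below the negative control rows, and Srf, the coactivator gene Ep300 and Elk4, a partner of SRF at the Fos promoter, fell by 1.05, 0.48 and 0.16.

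Of 11 genes of AP-1 protein turnover and repression 2 rose and 2 fell (18.2% each way, beside 14.0% and 15.7% of all genes tested), with a median difference of 0.055; these shares are near the background and say nothing particular of the list. The deacetylase gene Sirt1 and Fbxw7, a subunit of a ubiquitin ligase that targets JUN, rose by 0.57 and 0.23, and Gsk3b, a kinase that phosphorylates JUN, and Cops5, which codes for the JUN-binding protein JAB1, fell by 0.30 and 0.30. With array weights the list had 4 higher and 3 lower calls, and without sample 18 it had 1 of each. Of 8 dual-specificity phosphatases, which switch off MAP kinases, 1 rose and 2 fell, 3 of 8 beside 29.7% called over all genes, with a median difference of 0.25. Dusp1, itself an immediate-early gene, rose by 0.69, at 17.26, 16.49, 16.83 and 16.79 in samples 13, 15, 17 and 19, Dusp10 fell by 1.30 and Dusp6 by 1.16, and Dusp16 was at a difference of 0.57 (limma adjusted p = 0.0535). With array weights 4 were called higher and 2 lower, and without samples 13 and 14 it was 3 and 2.

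Genes known as AP-1 targets did not move one way. Of 18 tested, 7 rose and 6 fell (38.9% and 33.3%, beside 14.0% and 15.7% of all genes tested), with a median difference of -0.068. The 4 with the smallest p all fell: the angiogenic factor gene Vegfa from 13.25 ± 0.094 to 10.91 ± 0.043, the urokinase gene Plau from 10.71 ± 0.47 to 6.75 ± 0.25, the matrix protease gene Mmp10 from 10.36 ± 0.49 to 6.21 ± 0.27, below the negative control rows, and the hyaluronan receptor gene Cd44 from 13.03 ± 0.27 to 10.86 ± 0.33. The genes that rose were Timp1, Plaur, Hmox1, Il6, Ccl2, Lif and Gclc. Of these, Il6 rose by 3.04 (limma adjusted p = 0.00015), a larger change than the falls of Vegfa and Cd44. It was a smaller change than those of Plau and Mmp10, whose differences were -3.96 and -4.15. Ccl2 rose by 2.03 and Plaur by 1.29. The direction of these genes was thus not shared. Of the 8 tested AP-1 members 7 had a positive difference, 4 of them called, against a positive difference in 47.8% of all genes tested. The members are not independent of each other, and the action of AP-1 proteins on the target genes was not tested.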

How the data were processed

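The table that the authors deposited holds log2 values. Per the submitters' processing notes these came from Affymetrix Expression Console 1.1 with RMA, which corrects background, quantile-normalizes arrays and summarises probes. Settings and genome build are not given in the sources used here. Per the labels' protocols, 2 ng of RNA was amplified for each array, which can add spread to dim transcripts. The table held 65956 transcript clusters and 6732 control rows; 31258 clusters named 1 gene, 1492 several and 33206 none. Symbols were brought up to date through RefSeq's mouse annotation (GRCm38.p6). Where several clusters named a gene, the one with the highest mean was taken. A cluster was kept where at least 4 of 8 samples reached 5.36, the median over all clusters. The 17221 genes left were fitted with limma 3.58.1 in R 4.3.3 (lmFit, eBayes, two-sided, no block), adjusted by Benjamini-Hochberg; calls had an adjusted p under 0.05. Thy1 was compared by an exact permutation test over the samples. The limma step was tested on simulated data with 17221 genes for the population comparison, in which 52.2%, 86.6% and 95.5% of changes of 0.5, 1 and 2 (log2) were called. In these simulated data 165 genes were called, 9 of them unchanged, against 5118 genes called in the deposited data. With fewer calls the adjustment is stricter, so these shares do not give the recovery in the deposited data. Precision is limited by the number of arrays. The AP-1 members and the gene lists were chosen with earlier results of these data known. All members were named, of each list around them the 4 genes with the smallest p, and the 5 genes most like Fos; other genes named were chosen after their values were seen. Alternatives changed the filter, normalization, variance model, array weights, choice of cluster, blocks and samples. Figures were drawn with matplotlib 3.10.9.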

Additional observations from a re-analysis of the deposited data

Results flagged for a closer look

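In 100 groups of 4 samples (the members and a part of the genes named beside them, in each population), 3 held a sample far from the other 3. Chance flags about 1 in 20 groups, and 0 of the 3 were among the 18 groups of AP-1 members. Uty is not counted among the 3, although sample 13 had it at 5.486, against 9.943 to 10.06 in the other CD90-negative samples. Sample 14 had Uty at 5.565, against 9.648 to 9.758 in the other CD90-positive samples. In the CD90-positive population, sample 14 had Pdpn at 13.54, against 13.06 to 13.11 in the other samples. In the CD90-negative population, sample 15 had Ptprc at 4.74, against 4.49 to 4.53, and sample 13 had Plau at 10.01, against 10.85 to 11.02.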

How the results depend on the processing

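The count of AP-1 members called stayed between 3 and 5 over 17 alternatives, with 0 called lower in any of them (limma adjusted p under 0.05; 3 when Fos was lost or Maff fell under a stricter filter, 5 when Fosl2 was gained). Atf3 and Jun passed in 17 of 17 alternatives and Maff in 16 of 16; Fos passed in 9 of 17 and Fosl2 in 4 of 17; Fosb, Jund and Mafk passed in 0. Mafk ran from -0.157 to 0.0040 with 1 sample left out, turning positive without sample 13 (limma adjusted p = 0.984), and was also positive without samples 13 and 14 (0.052, limma adjusted p = 0.764). Centring the arrays lowered the median difference of all genes from -0.014 to -0.058. Leaving out single samples gave a Thy1 difference of 2.03 to 2.39, and a larger CD90-negative SD in 6 to 8 of 9 members, a count added after seeing the data. No paired analysis was run, because the populations share no replicate number and no label ties samples to mice. Both populations came from the same 4 mice, however, so the main fit treats samples that share mice as independent. The heat shock mean ran in parallel in neighbouring titles (11.79 and 11.93 in samples 13 and 14, 12.82 and 13.0 in 15 and 16, 12.2 and 12.34 in 17 and 18, 12.55 and 12.7 in 19 and 20). In the same order Cwc22 was at 8.20 and 7.86, 9.28 and 9.43, 14.7 and 14.34, and 13.89 and 13.47. Samples 13 and 14 were also those that read as female. Neighbouring titles may therefore share a mouse, which is a hint from the data and not from the labels. The fit with 3 sets of samples as blocks, which takes up a part of such sharing, called Fosl2 (limma adjusted p = 0.02) and 4 heat shock genes in addition and lost none of the 4 members called without it. Jund in both populations, and Maff and Thy1 in the CD90-negative one, had means below the negative control rows, so the sizes of their differences, ranges included, are not exact.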
